A study of Mus musculus with 6 samples.

Results

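The genes described here encode the protein kinases, phosphatases and postsynaptic scaffolds that carry long-term potentiation (LTP). They are 42 genes chosen by name from the 55421 genes of the count table, for their membership of the CaMK, PKC, PKA, Ras-MAPK, calcineurin and CREB pathways or of the postsynaptic density. All 42 genes passed the filter on low counts and were tested among 17069 genes. Hippocampal RNA came from 3 wild-type male C57BL/6N mice injected subcutaneously with substance P (SP; 10 µM, 100 µL) for 14 days and from 3 wild-type male C57BL/6N mice given an equal volume of saline (vehicle). The mice were 8 to 10 weeks old, and each gave 1 stranded mRNA library. Mice of both groups carried no transgene, and the amount of SP that reached the hippocampus was not measured. The libraries are named by group and replicate number (SP 1, vehicle 1 and so on), and the labels call that number a batch.

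In a dendritic spine, calcium that enters through NMDA receptors binds calmodulin. Calcium-loaded calmodulin activates CaMKII, the kinase that holds potentiation at the synapse, and also activates calcineurin, a phosphatase that opposes it, as well as the adenylyl cyclases that feed PKA. Ras-MAPK signaling and nuclear CaMK carry the signal to CREB, the transcription factor of late LTP, while PSD-95 and the SHANK proteins hold receptors and kinases in place.

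The libraries held between 22349941 and 27605937 counts. Expression is given as CPM (counts scaled to a common normalized library size), and levels of different genes are compared only as CPM per kilobase of annotated exon. The marker lists for CA1, CA3 and dentate granule cells summed to 517 to 592, 303 to 377 and 281 to 451 CPM, so each of the labelled tissue's main cell types was present in all 6 libraries. Other markers differed between libraries. Choroid plexus markers summed to 3770 to 4693 CPM in the vehicle libraries, to 2777 and 3931 CPM in SP 2 and SP 3, and to 169 CPM in SP 1. Summed oligodendrocyte markers were higher in every SP library (2581 to 3712 CPM) than in every vehicle library (2228 to 2550 CPM). Of these 10 genes, 7 were higher without overlap between the groups, beside 9.19% of all tested genes. Summed markers of neocortex, layer 6b and subiculum were lower (201 to 245 against 256 to 267 CPM). Of these 8 genes, 5 were lower without overlap, beside 9.03% of all tested genes. In this list *Fezf2* had 39.9 to 42.9 CPM in the vehicle libraries and 45.7, 30.8 and 47.1 CPM in the SP libraries. *Cplx3* had 5.77 to 7.0 CPM against 3.54, 9.34 and 4.0 CPM. In none of the 15 marker lists was a gene at 3 counts or fewer in all libraries. SP 2 stood farthest from the others in several lists, and values without replicate 2 are given beside many of the members. In bulk tissue, fewer cells of a type and less RNA per cell cannot be told apart.

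No member passed the thresholds of the study, FDR < 0.1 and |log2FC| > 0.3, in edgeR's quasi-likelihood test with the replicate number as a block (0 of 42, where 0.0293% of all tested genes passed). The number was also 0 of 42 with limma-voom and with DESeq2 and the block, and 1 of 42 with DESeq2 without the block (0.414% of all genes). The share of all genes is not given for limma-voom or for DESeq2 with the block. Their 0 is therefore not read as a result about the members. An unadjusted p under 0.05 was found for 10 members, 5 higher and 5 lower in SP-injected mice. Among all tested genes, 4.48% had such a p with a higher value and 5.59% with a lower one. *Camk2d*, *Prkar2b*, *Adcy8*, *Prkacb* and *Rps6ka2* were the 5 lower genes, and *Camkk1*, *Camk2b*, *Crtc1*, *Shank3* and *Nrgn* the 5 higher ones. Their FDRs ranged from 0.308 to 0.492. The libraries of the 2 groups did not overlap in 10 members that were higher in SP-injected mice and in 8 that were lower, against 9.19% and 9.03% of all tested genes. The median log2 fold change of the 42 members was 0.045, beside 0.001 for all tested genes, and 28 of the 42 had a positive value. Differences were small in most members: 3 of 42 had a |log2FC| over 0.3, while 14.2% of all tested genes did. These shares compare genes of unlike counts. The members had at least 393 counts in every library and a median standard error of 0.064. All tested genes reached down to 0 counts and had a median standard error of 0.0906.

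Upstream sequence of the 4 members with the lowest p is shown because they lead the differences in both directions. The sequences are from RefSeq on GRCm38.p6 and hold up to 250 bases before a start site, less any base in an annotated exon. The *Camk2d* stretch lies inside the span of the annotated gene, outside its exons. Capitals mark the CREB half-site TGACG or its reverse complement CGTCA.
*Camk2d* (chr3:126596701-126596950, plus strand): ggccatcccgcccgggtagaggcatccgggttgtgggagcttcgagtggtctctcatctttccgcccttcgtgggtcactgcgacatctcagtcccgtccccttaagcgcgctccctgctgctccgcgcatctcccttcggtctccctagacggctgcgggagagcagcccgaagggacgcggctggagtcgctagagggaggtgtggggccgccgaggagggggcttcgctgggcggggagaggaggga
*Prkar2b* (chr12:32061297-32061527, minus strand): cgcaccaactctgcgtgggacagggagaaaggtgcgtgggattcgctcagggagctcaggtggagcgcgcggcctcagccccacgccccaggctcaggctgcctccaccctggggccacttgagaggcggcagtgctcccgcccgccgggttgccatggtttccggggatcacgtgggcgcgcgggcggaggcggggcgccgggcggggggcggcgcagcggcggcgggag
*Camkk1* (chr11:73018738-73018987, plus strand): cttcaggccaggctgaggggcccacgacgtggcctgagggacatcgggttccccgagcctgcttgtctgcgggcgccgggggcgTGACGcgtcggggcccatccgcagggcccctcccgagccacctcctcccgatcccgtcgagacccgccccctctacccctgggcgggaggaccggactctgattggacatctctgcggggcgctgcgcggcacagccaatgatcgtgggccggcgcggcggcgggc
*Prkacb* (chr3:146812991-146813196, minus strand): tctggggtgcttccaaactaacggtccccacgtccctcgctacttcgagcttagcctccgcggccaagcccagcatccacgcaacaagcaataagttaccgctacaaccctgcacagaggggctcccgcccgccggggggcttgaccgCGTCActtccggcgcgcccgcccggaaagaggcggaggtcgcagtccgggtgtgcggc

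The half-site occurred 1 time in the *Camkk1* stretch, 166 bases before the start, and 1 time in that of *Prkacb*, 102 bases before it. The stretches of *Camk2d* and *Prkar2b* held 0. The full palindrome TGACGTCA was in none of the 4. RefSeq promoter windows of 300 bases (250 before and 50 after a start) were found for 29 of the 42 members, and 19 of their 47 windows held the half-site on either strand, beside 20.8% of all 32851 windows. The full palindrome, which contains both half-sites, was in 4 of the 47 windows, those of *Braf*, *Prkar1a* and *Prkcz*, beside 1.79% of all windows. These matches describe letters in the windows, whose base composition was not matched.

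**Figure D1:**
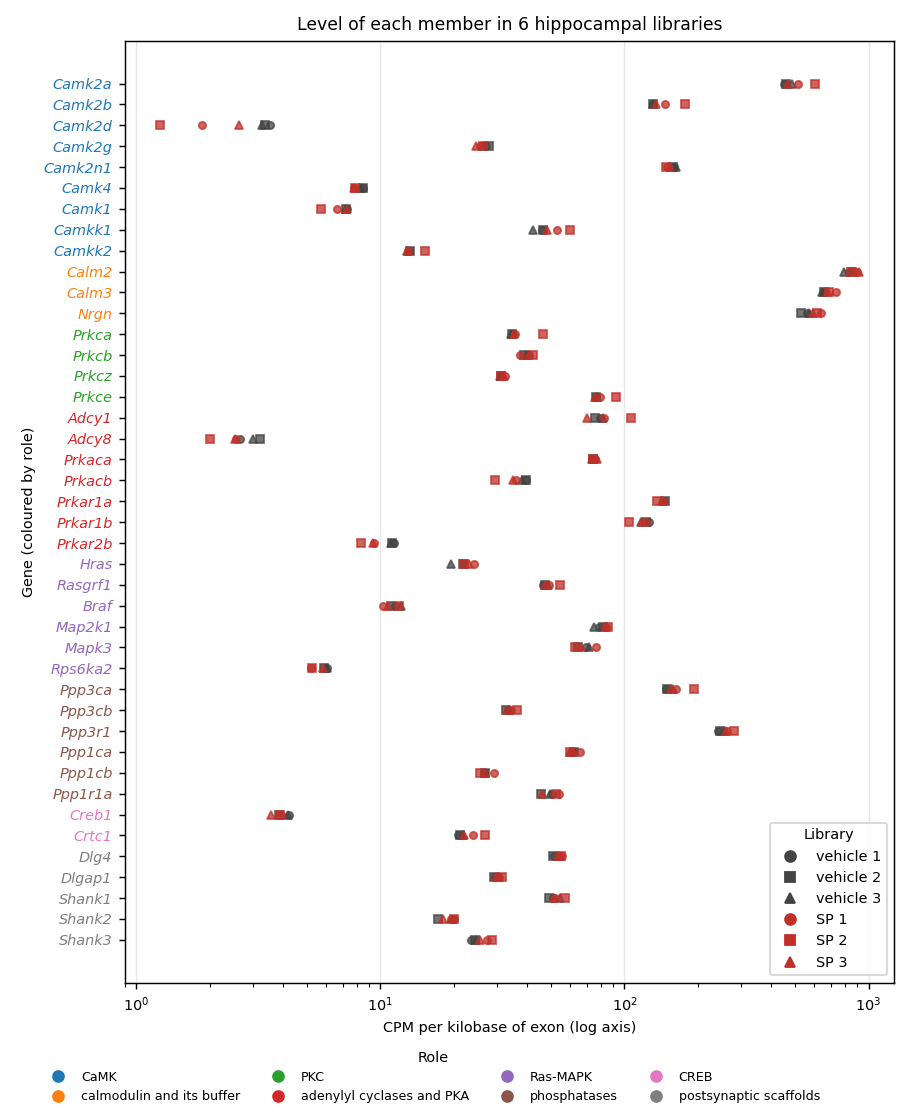
Level of each of the 42 members in the 6 libraries, as CPM per kilobase of exon on a log axis, with gene names coloured by role, vehicle libraries in grey and SP libraries in red. By their vehicle libraries, *Calm2* lies farthest to the right with a mean of 828 CPM per kilobase and *Adcy8* farthest to the left with 2.96. *Camk2d* is the gene whose SP libraries lie farthest to the left of its vehicle libraries.

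The CaMK genes held the largest difference among the members. CaMKII is a holoenzyme of subunits from 4 genes, of which *Camk2a* and *Camk2b* encode the forebrain isoforms and *Camk2d* and *Camk2g* the more widely expressed ones. *Camk2d* (ENSMUSG00000053819, chromosome 3 of GRCm38 from 126596302 to 126846326) had 79.2, 75.7 and 73.5 CPM in vehicle 1, 2 and 3 and 41.8, 28.2 and 58.9 CPM in SP 1, 2 and 3. Every SP library was below every vehicle library, and the SP libraries were spread more widely. The means were 76.1 ± 2.83 and 43.0 ± 15.4 CPM (SD, n = 3 mice each), a log2 fold change of -0.88 (standard error 0.176, 95% interval -1.29 to -0.46), or 45.6% lower. The FDR was 0.308 at an unadjusted p of 0.00138. Without replicate 2, whose SP library was lowest, the log2 fold change was -0.62, and without replicate 3 it was -1.17 with an FDR of 0.0352, and there *Camk2d* was the 1 member called (0.215% of all genes tested there). SP 2 was also lowest in the sums of the markers of neocortex, layer 6b and subiculum (201 CPM), of leptomeningeal fibroblasts (78.2 CPM) and of interneurons (511 CPM), and highest in those of dentate granule cells (451 CPM) and oligodendrocytes (3712 CPM). Not every gene of these lists followed its sum. *Cplx3* (9.34 CPM) and the fibroblast gene *Lum* (9.67 CPM) were highest in SP 2, and *C1ql2* was highest in SP 1. The low fibroblast sum lay largely in *Dcn*, with 24.9 CPM in SP 2 against 75.6 to 86.6 CPM in the vehicle libraries. The part of these cell types in the *Camk2d* difference was not tested.

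The other CaMKII genes had smaller differences. *Camk2b* had 1194, 1193 and 1198 CPM in the vehicle libraries and 1336, 1614 and 1233 CPM in the SP libraries. The vehicle libraries lay close together and all SP libraries were above them, SP 2 by the most. The fitted log2 difference for *Camk2b* was 0.21 ± 0.0863 (standard error; FDR 0.473), and it was 0.10 when replicate 2 was left out. *Camk2a* had 3368, 3430 and 3623 CPM against 3827, 4508 and 3496 CPM, and here SP 3 lay within the vehicle range. The log2 fold change of *Camk2a* was 0.176 (95% interval -0.054 to 0.405), and 0.066 without replicate 2 or 0.286 without replicate 3. *Camk2g* had 173, 178 and 169 CPM against 164, 168 and 158 CPM, lower in all SP libraries by a log2 fold change of -0.08 (95% interval -0.19 to 0.03).

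As a share of the 4 CaMKII genes per kilobase, *Camk2d* made up 0.575%, 0.541% and 0.506% in the vehicle libraries and 0.271%, 0.155% and 0.415% in the SP libraries. *Camk2g* made up 4.40%, 4.47% and 4.07% against 3.72%, 3.25% and 3.92%. Both shares were lower in every SP library, whereas *Camk2a* (74.2 ± 0.766% against 74.5 ± 0.259%) and *Camk2b* (20.9 ± 0.537% against 21.5 ± 0.298%; SD, n = 3 each) overlapped. The level of a gene per kilobase depends on the length used. With the longest transcript in place of all exons, the mean share of *Camk2d* was 1.31% in vehicle-injected and 0.683% in SP-injected mice.

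*Camkk1* encodes CaMK kinase 1, which phosphorylates CaMKI and CaMKIV. This gene (ENSMUSG00000020785, chromosome 11 from 73019008 to 73042073) had 171, 172 and 157 CPM in the vehicle libraries and 198, 223 and 179 CPM in the SP libraries. All 3 SP libraries were above all vehicle libraries. The log2 fold change was 0.26 (standard error 0.0567, 95% interval 0.13 to 0.39, FDR 0.313), or 19.7% higher, and lay between 0.20 and 0.29 when each replicate number was left out. Its relative *Camkk2* had 143, 145 and 141 CPM against 142, 166 and 142 CPM, so that 2 of 3 SP libraries were within the vehicle range. *Camk4*, a nuclear kinase that phosphorylates CREB, had 27.7, 27.6 and 27.2 CPM against 25.4, 25.6 and 25.3 CPM, with little spread and no overlap, and its log2 fold change was -0.11 (95% interval -0.26 to 0.04). *Camk1* ranged from 43.2 to 43.7 CPM in the vehicle libraries and from 34.2 to 43.6 CPM in the SP libraries, with overlap. *Camk2n1*, which encodes an endogenous CaMKII inhibitor, had 708, 703 and 719 CPM against 663, 656 and 683 CPM, a log2 fold change of -0.09 (FDR 0.625). Of the 9 CaMK genes, 6 did not overlap between the groups, 2 higher and 4 lower in SP-injected mice, beside 9.19% and 9.03% of all tested genes.

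**Figure D2:**
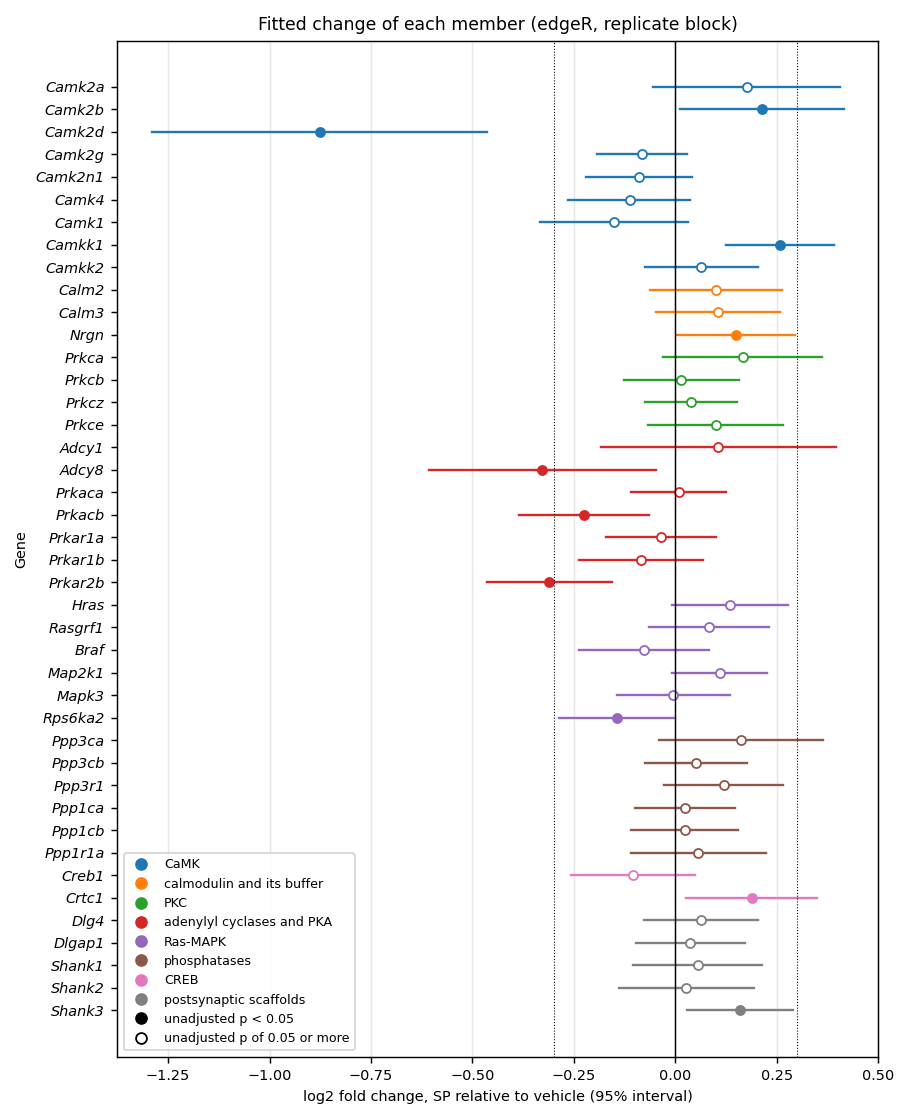
Fitted log2 fold change of each member, SP relative to vehicle, with its 95% interval, from edgeR with the replicate block, with filled points for an unadjusted p under 0.05 and dotted lines at a |log2FC| of 0.3. *Camk2d* at -0.88, *Adcy8* at -0.33 and *Prkar2b* at -0.31 lie past the left dotted line, and no member lies past the right one.

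Calmodulin and its buffer were the most abundant members per kilobase. *Calm2* and *Calm3* encode the same calmodulin protein. *Calm2* had 828 ± 29.6 CPM per kilobase in vehicle-injected mice, *Calm3* 652 ± 7.90 and *Nrgn* 554 ± 21.7 (SD, n = 3 each), and these 3 did not overlap. With the longest transcript as the length, *Camk2a* took the second place instead. Neurogranin, the product of *Nrgn*, binds calcium-free calmodulin in spines. *Nrgn* had 814, 770 and 830 CPM in the vehicle libraries and 926, 891 and 862 CPM in the SP libraries, each SP library above each vehicle library. The fitted log2 difference for *Nrgn* was 0.15 (standard error 0.0625, 95% interval 0.004 to 0.296, FDR 0.484). *Calm3* had 1591, 1590 and 1558 CPM against 1777, 1671 and 1652 CPM, also without overlap, and a log2 fold change of 0.105 (FDR 0.626). *Calm2* had 1220, 1256 and 1169 CPM against 1320, 1239 and 1347 CPM, where SP 2 was inside the vehicle range. Of the 31-base sequences of *Calm2*, 18.1% occur in other genes, so its counts depend more than most on how Salmon divided reads.

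The PKC genes showed no unadjusted p under 0.05. *Prkce*, which encodes a calcium-independent isoform, was the most abundant of the 4 per kilobase of exon (76.7 ± 0.703 CPM per kilobase in vehicle-injected mice; SD, n = 3), though not with the longest transcript as the length, where *Prkcb* came first. *Prkce* had 556, 552 and 562 CPM against 577, 668 and 551 CPM. *Prkca* had 313, 310 and 309 CPM in the vehicle libraries and 320, 417 and 318 CPM in the SP libraries. Its groups did not overlap, but SP 1 and SP 3 lay close to the vehicle libraries and the log2 fold change of 0.17 was 0.036 without replicate 2. *Prkcb* encodes a calcium-dependent isoform and had the smallest difference of the 4, with 310, 296 and 303 CPM against 286, 323 and 310 CPM and a log2 fold change of 0.015 (95% interval -0.13 to 0.16). *Prkcz*, from whose locus the persistently active PKMzeta is also made, had 195 to 198 CPM in the vehicle libraries and 198 to 206 CPM in the SP libraries. The deposited counts do not separate it from PKC-zeta.

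Genes of adenylyl cyclases and PKA held 3 of the 5 lower members. PKA is a tetramer in which regulatory subunits hold catalytic subunits inactive until cAMP binds. *Prkar2b* (ENSMUSG00000002997, chromosome 12 from 31958476 to 32061296) encodes the RII-beta regulatory subunit, which anchors the kinase in dendrites. It had 41.6, 40.7 and 40.1 CPM in the vehicle libraries and 34.4, 30.3 and 34.0 CPM in the SP libraries. Every SP library was below every vehicle library, and the vehicle libraries lay close together. The log2 fold change was -0.31 (standard error 0.0659, 95% interval -0.465 to -0.157, FDR 0.308, unadjusted p 0.00187), or 19.4% lower. It lay between -0.351 and -0.255 over all 11 alternative fits, each with an unadjusted p under 0.05. *Prkar2b* passed the study's thresholds in 2 of these fits, with no filter on low counts (FDR 0.0414, together with *Camk2d* at an FDR of 0.00024, where 1.37% of genes passed) and with DESeq2 without the block (FDR 0.0460, the 1 member called, where 0.414% of genes passed).

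*Prkar1a* and *Prkar1b* encode the RI regulatory subunits. *Prkar1a*, the most abundant of these 7 genes per kilobase (145 ± 2.50 CPM per kilobase; SD, n = 3), had 623, 637 and 616 CPM against 621, 588 and 621 CPM. *Prkar1b* had 446 to 480 CPM in the vehicle libraries and 397 to 470 CPM in the SP libraries. *Prkar2a*, the other RII gene, is not a member and was left out of the shares. Its CPM were 56.0, 57.1 and 58.0 against 54.6, 53.0 and 54.0, lower without overlap (log2 fold change -0.08, FDR 0.665). Of the 3 regulatory genes among the members, per kilobase, *Prkar2b* made up 4.04%, 3.96% and 4.06% in the vehicle libraries. In the SP libraries it made up 3.41%, 3.34% and 3.43%. This share varied by an SD of 0.0530 and 0.0468 percentage points within the groups, so SP 2 did not stand apart in it as it did in the CPM. With 3 mice in each group, the exact two-sided permutation test of a single value cannot go below 0.1, and no p is given for shares.

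The catalytic subunits differed between their genes. *Prkacb* (ENSMUSG00000005034, chromosome 3 from 146729574 to 146812990), for the C-beta subunit, had 346, 345 and 335 CPM in the vehicle libraries and 316, 259 and 305 CPM in the SP libraries. All SP libraries were lower, and SP 2 was lowest. For *Prkacb* the fitted log2 difference was -0.225 (standard error 0.0686, 95% interval -0.386 to -0.065, FDR 0.404), and -0.13 without replicate 2. *Prkaca*, for the C-alpha subunit, had 188, 185 and 183 CPM against 183, 184 and 191 CPM, a log2 fold change of 0.008 (95% interval -0.11 to 0.125). The share of *Prkacb* in both genes per kilobase was 34.4 ± 0.244% in vehicle-injected and 30.8 ± 2.19% in SP-injected mice (SD, n = 3 each), without overlap.

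The members also include *Adcy8* and *Adcy1*, which encode calmodulin-stimulated adenylyl cyclases. *Adcy8* (ENSMUSG00000022376, chromosome 15 from 64697084 to 64922296) had 21.6, 26.2 and 24.6 CPM in the vehicle libraries and 20.8, 16.3 and 20.7 CPM in the SP libraries. The SP libraries were all lower, SP 1 and SP 3 by little against vehicle 1. For *Adcy8* the fitted log2 difference was -0.33 (standard error 0.119, 95% interval -0.61 to -0.05, FDR 0.437), and -0.15 without replicate 2. *Adcy1* was far more abundant, with 96.4 ± 0.441% of the CPM per kilobase of both genes in vehicle-injected mice (SD, n = 3). It had 944 to 1022 CPM in the vehicle libraries and 1033, 1326 and 875 CPM in SP 1, 2 and 3, so the SP libraries lay on both sides of the vehicle range. Its log2 fold change of 0.11 (95% interval -0.18 to 0.40) was -0.086 without replicate 2. In this order of SP libraries, dentate granule markers summed to 387, 451 and 281 CPM, against 302 to 324 CPM in the vehicle libraries, and their part in the values of *Adcy1* was not tested.

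**Figure D3:**
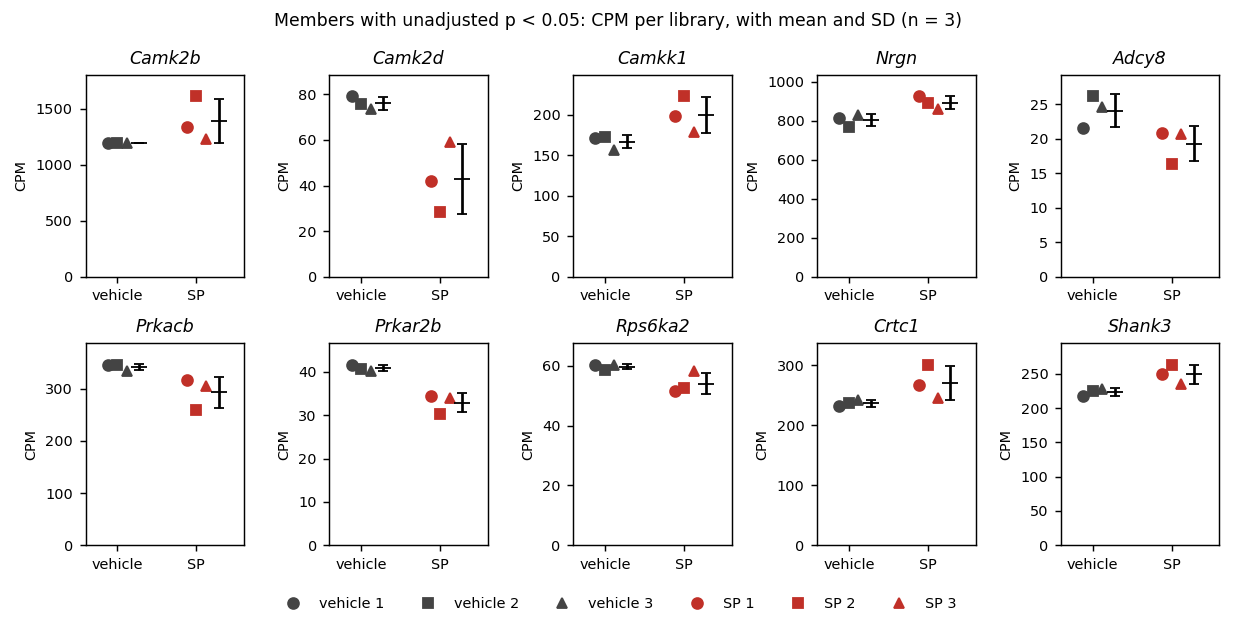
CPM in each library for the 10 members with an unadjusted p under 0.05, from 0 on each vertical axis, with bars for the mean and SD of 3 mice. In each of the 10 genes the SP libraries lie all above or all below the vehicle libraries, and the SP 2 square is the most distant from the vehicle libraries in 8 of them, the exceptions being *Nrgn* and *Rps6ka2*.

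The Ras-MAPK genes leaned in both directions, 3 of 6 with a positive and 3 with a negative log2 fold change. *Rps6ka2* encodes the ribosomal S6 kinase RSK3, which acts downstream of ERK. It had 60.3, 58.6 and 60.1 CPM in the vehicle libraries and 51.6, 52.4 and 58.2 CPM in the SP libraries, with SP 3 just under the lowest vehicle library. The log2 fold change was -0.145 (standard error 0.0610, 95% interval -0.287 to -0.002, FDR 0.492). Of its 31-base sequences, 20.7% occur in 1 annotated gene that had 0 counts. *Map2k1*, which encodes the ERK kinase MEK1 and was the most abundant of the 6 per kilobase of exon (78.5 ± 3.44 CPM per kilobase; SD, n = 3; with the longest transcript as the length *Rasgrf1* came first, at 110 against 109), had 267, 277 and 254 CPM against 284, 290 and 286 CPM, without overlap. *Hras*, which encodes a Ras GTPase, had 81.9, 80.9 and 72.4 CPM against 89.9, 82.1 and 86.1 CPM, also without overlap. Their log2 fold changes were 0.109 (95% interval -0.009 to 0.227) and 0.135 (95% interval -0.009 to 0.278). *Mapk3*, which encodes ERK1, had the smallest difference of the 6, with 157, 146 and 161 CPM against 172, 141 and 150 CPM and a log2 fold change of -0.005 (95% interval -0.145 to 0.135). *Rasgrf1*, a calcium-dependent activator of Ras, and the kinase *Braf* overlapped between the groups, with log2 fold changes of 0.084 and -0.077 that were 0.024 and -0.171 without replicate 2.

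Among the phosphatases all 6 log2 fold changes were positive, from 0.023 to 0.16, and none had an unadjusted p under 0.05. Without replicate 1 those of *Ppp1ca* and *Ppp1cb* were -0.011 and -0.032, and without replicate 2 that of *Ppp1r1a* was -0.013. Calcineurin is a dimer of a catalytic A subunit (*Ppp3ca*, *Ppp3cb* or *Ppp3cc*, the last not a member) and the regulatory B subunit (*Ppp3r1*). *Ppp3r1*, the most abundant of the 6 per kilobase of exon (247 ± 7.85 CPM per kilobase; SD, n = 3; with the longest transcript as the length *Ppp3ca* came first, at 319 against 279), had 777, 794 and 826 CPM in the vehicle libraries and 852, 910 and 842 CPM in the SP libraries, without overlap, and a log2 fold change of 0.12 (FDR 0.566). It shares 14.3% of its exon bases with *Wdr92* on the same strand, which had a mean of 214 counts. *Ppp3ca* had 1477, 1496 and 1575 CPM against 1632, 1926 and 1549 CPM, with SP 3 inside the vehicle range, and a log2 fold change of 0.16 (95% interval -0.04 to 0.36) that was 0.060 without replicate 2. *Ppp3cb* ranged from 289 to 295 CPM in the vehicle libraries and from 290 to 318 CPM in the SP libraries. The share of *Ppp3cb* in *Ppp3ca* and *Ppp3cb* together, per kilobase, was 18.4%, 18.0% and 17.5% against 17.3%, 15.8% and 17.5%. Here vehicle 3 and SP 3 are equal after rounding. *Ppp3cc*, left out of this share, had 18.0, 16.9 and 17.7 CPM against 16.6, 15.9 and 16.6 CPM, lower without overlap (log2 fold change -0.10, FDR 0.689). Protein phosphatase 1 removes phosphate from CaMKII, and its catalytic genes *Ppp1ca* and *Ppp1cb* had log2 fold changes of 0.024 and 0.023. *Ppp1cb* had 290, 292 and 292 CPM against 318, 280 and 291 CPM, so the SP libraries lay on both sides of the vehicle libraries. *Ppp1r1a*, which encodes inhibitor 1 of this phosphatase, had 59.6 to 65.9 CPM against 59.9 to 70.2 CPM.

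**Figure D4:**
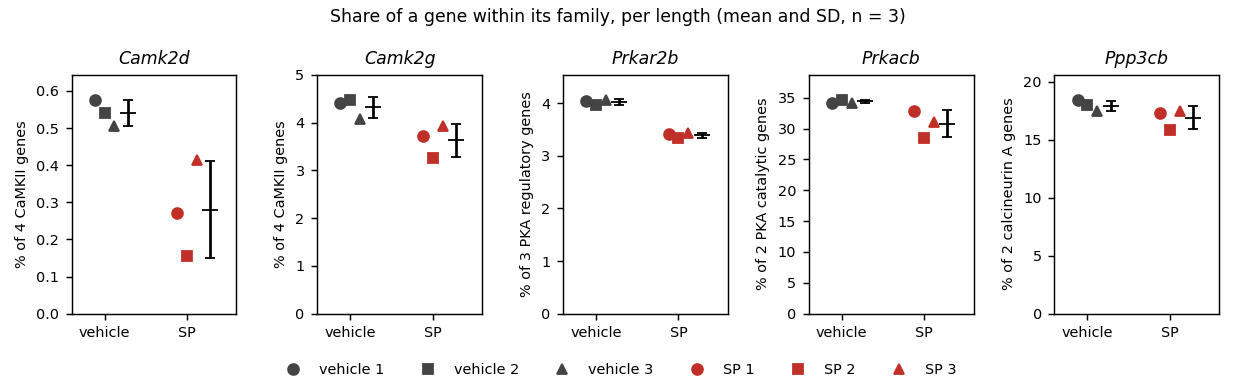
Share of 5 genes within their family in each library, as a percentage of the family's CPM per kilobase of exon, with the mean and SD of 3 mice. The shares of *Camk2d*, *Camk2g*, *Prkar2b* and *Prkacb* are lower in all SP libraries than in all vehicle libraries. For *Ppp3cb*, SP 1 and SP 2 are lower than all vehicle libraries, while SP 3 and vehicle 3 are equal after rounding (17.5%). The 3 SP libraries lie closest together for *Prkar2b*.

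*Crtc1* encodes a coactivator that calcineurin frees to enter the nucleus and join CREB. It had 232, 237 and 243 CPM in the vehicle libraries and 268, 301 and 245 CPM in the SP libraries. SP 3 was above the highest vehicle library by less than the SD of the vehicle libraries (5.81 CPM). For *Crtc1* the log2 fold change reached 0.19 (standard error 0.0694, 95% interval 0.03 to 0.35, FDR 0.440), and 0.11 without replicate 2. *Creb1* itself had 57.9, 52.7 and 57.2 CPM against 54.0, 53.1 and 48.9 CPM, with overlap, and a log2 fold change of -0.10 (95% interval -0.26 to 0.05).

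The 5 scaffold genes all had positive log2 fold changes, of which that of *Shank3* was the largest, but without replicate 2 the values of *Shank1* and *Shank2* were -0.021 and -0.072. SHANK proteins form the deep layer of the postsynaptic density, where they join the PSD-95 and GKAP proteins encoded by *Dlg4* and *Dlgap1* to actin. *Shank3* (ENSMUSG00000022623, chromosome 15 from 89499623 to 89560261) had 217, 225 and 227 CPM in the vehicle libraries and 250, 263 and 235 CPM in the SP libraries, each SP library above each vehicle library. The fitted log2 difference for *Shank3* was 0.16 (standard error 0.0560, 95% interval 0.03 to 0.29, FDR 0.430), or 11.7% higher, and lay between 0.13 and 0.21 when each replicate number was left out. *Shank2* had 216, 185 and 210 CPM against 210, 216 and 195 CPM, with complete overlap and a log2 fold change of 0.027 (95% interval -0.14 to 0.19). *Dlg4*, the most abundant scaffold per kilobase (52.4 ± 1.73 CPM per kilobase, beside 51.5 ± 2.60 for *Shank1*; SD, n = 3 each), had 684, 677 and 720 CPM against 738, 728 and 707 CPM. With all exons as the length these 2 genes did not differ in level beyond their spread, but with the longest transcript *Dlg4* was at 110, *Dlgap1* at 74.4 and *Shank1* at 55.1 CPM per kilobase. *Dlgap1* and *Shank1* overlapped between the groups, with log2 fold changes of 0.037 and 0.055, and that of *Dlgap1* was 0.001 without replicate 2.

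The SP libraries were not equally distant from vehicle. SP 2 was the highest of the 6 libraries in 18 of 42 members and the lowest in 11, together 69.0%, while it was an extreme in 46.2% of all tested genes. SP 3 was an extreme in 7 members. The median absolute log2 ratio of the members within a replicate number was 0.112, 0.197 and 0.0571 for replicates 1, 2 and 3. In 11 members the SP library was higher in all 3 replicate pairs and in 8 it was lower in all 3, beside 16.4% and 16.7% of all tested genes. The summed CPM of the 42 members was 20375, 20328 and 20777 in the vehicle libraries and 21764, 23339 and 20706 in the SP libraries, so that SP 3 was inside the vehicle range.

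**Figure D5:**
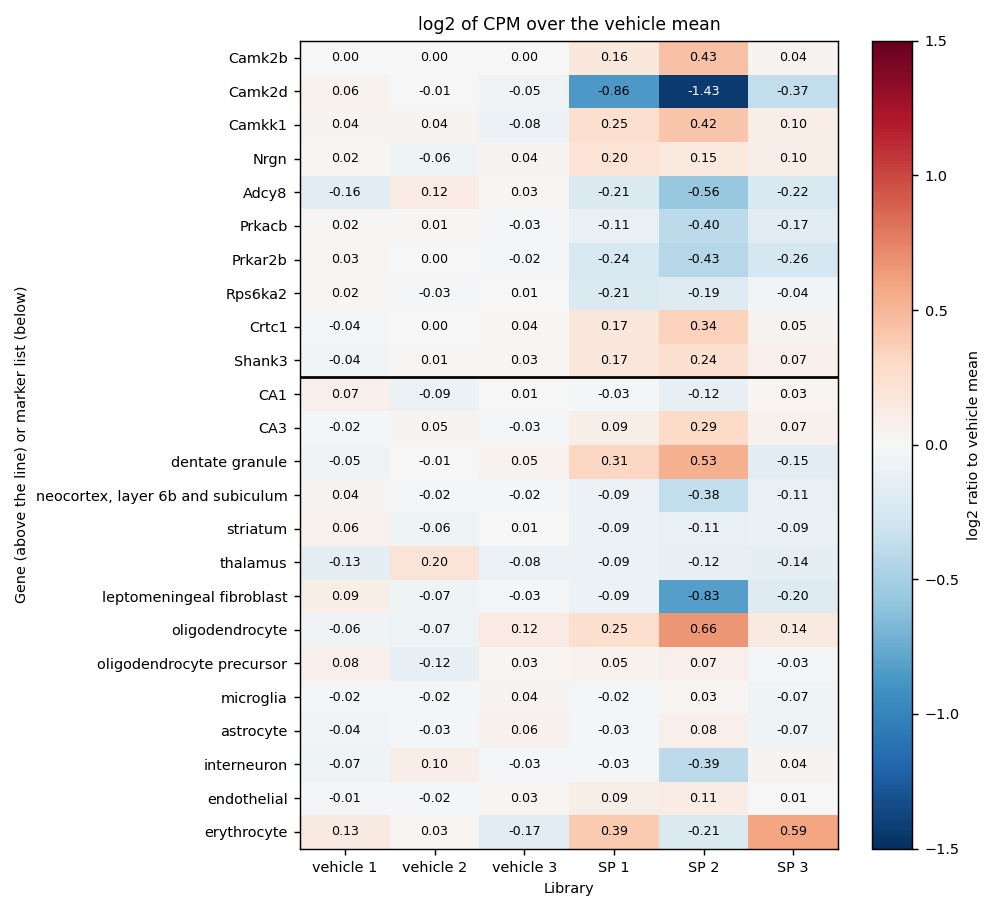
log2 ratio of each library's CPM to the mean of the vehicle libraries, for the 10 members with an unadjusted p under 0.05 (above the line) and for the summed CPM of 14 marker lists (below the line), with choroid plexus left out because SP 1 lies outside the scale. SP 2 holds -1.43 for *Camk2d*, 0.66 for oligodendrocytes, 0.53 for dentate granule cells and -0.375 for neocortex, layer 6b and subiculum.

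Another 57 genes of the same pathways were followed as a separate list, and all were tested. None passed the thresholds in edgeR's test (0 of 57, where 0.0293% of all tested genes passed). An unadjusted p under 0.05 was found for 8, 4 higher and 4 lower in SP-injected mice. That is 14.0% of the list, near the 10.1% of all tested genes with such a p, so the 8 genes are described only. Their median log2 fold change was 0.018, and the libraries of the groups did not overlap in 6 higher and 5 lower genes, 19.3% in all beside 18.2% of all tested genes. The 4 lower genes were *Gap43*, *Camk2n2*, *Akap9* and *Akap12*. *Gap43*, a growth cone protein that binds calmodulin as neurogranin does, had 146, 142 and 137 CPM against 124, 83.2 and 139 CPM, a log2 fold change of -0.325 (FDR 0.475), with SP 3 inside the vehicle range. *Camk2n2*, for the other CaMKII inhibitor, had 45.9, 44.3 and 41.4 CPM against 36.6, 31.5 and 41.8 CPM (log2 fold change -0.27, FDR 0.438). *Akap9* and *Akap12*, which encode anchoring proteins of PKA, did not overlap between the groups, with log2 differences of -0.24 (FDR 0.367) for *Akap9* and -0.20 (FDR 0.460) for *Akap12*. The 4 higher genes were *Ppp1cc*, *Ppp1r9b*, *Crtc3* and *Adcy9*. *Ppp1cc*, for the gamma catalytic subunit of protein phosphatase 1, had 197, 200 and 193 CPM against 215, 230 and 213 CPM, and *Ppp1r9b*, for spinophilin, which targets that phosphatase to spines, had 940, 970 and 959 CPM against 1072, 1094 and 1019 CPM. *Ppp1cc* had a log2 difference of 0.155 (FDR 0.415) and *Ppp1r9b* one of 0.15 (FDR 0.474). *Crtc3*, a relative of *Crtc1*, had a log2 fold change of 0.20 (FDR 0.473) without overlap, and the cyclase gene *Adcy9* one of 0.20 (FDR 0.493) with overlap.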

How the data were processed

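Hippocampal RNA was sequenced from 6 mice, 3 in the SP and 3 in the vehicle group, after stranded mRNA library preparation. The authors trimmed reads with Trim Galore, aligned them to GRCm38 with STAR and quantified them with Salmon, per the labels and the study's methods; versions and the annotation release are not given in the sources used here. The authors deposited 1 table of estimated counts per gene, not normalized, in which 9.77% of all values were not exactly whole numbers as written. Because Salmon divides reads among similar transcripts, genes with shared sequence are less certain.

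Estimated counts were rounded, genes were kept with filterByExpr (minimum count 10, minimum total 15; 17069 of 55421 genes), and TMM factors and the quasi-likelihood test were computed in edgeR 4.0.16 (R 4.3.3) with the replicate number as a block, since the study adjusted for replicates. P-values were adjusted by Benjamini-Hochberg over all tested genes (FDR), and intervals are 95% intervals of the fit. Replicates are separate mice. A count of 3 or fewer was taken as the floor (0.109 to 0.134 CPM), which covers counting error only. Alternatives used limma 3.58.1 (voom), DESeq2 1.42.0, other normalizations and filters, no block, and each replicate number left out. The fit was tested on simulated data. Exon lengths and sequence shared between genes (31-base words) came from the GENCODE annotation of GRCm38.

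The members and lists were chosen with earlier results of these data known. Per-library values are given for members with an unadjusted p under 0.05, for members whose groups did not overlap, and for those in each role group with the largest change, the smallest change or the highest CPM per kilobase; other pathway genes are named where they had an unadjusted p under 0.05. *Camk1*, *Wdr92*, *Prkar2a*, *Ppp3cc* and the remaining members named were added after their values were seen.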

Additional observations from a re-analysis of the deposited data

How the results depend on the processing

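Over 11 alternative fits, 446 of 462 values of the 42 members kept their direction and their side of the thresholds, 4 were newly called and 12 turned in direction. The number of members called was 0 in edgeR's test with the filter and the block on all 6 libraries. It ranged from 0 to 1 when each replicate number was left out, and was 1 without replicate 3, where 0.215% of all genes passed. With the block kept, it was 2 when low-count genes were not filtered (1.37% of genes passed), and DESeq2 with no replicate block called 1 (0.414%). The number with an unadjusted p under 0.05 was 10, ranged from 5 to 10 when each replicate number was left out, and was 16 with DESeq2 and no replicate block. In edgeR with no replicate block, 0 members were called, 12 had an unadjusted p under 0.05 and the median log2 fold change was 0.045. Shares of all genes with such a p in these alternative fits, or called in edgeR without the block, are not given. Those counts are therefore not read as results about the members. Deviations of same-numbered libraries from their group means correlated at 0.0141, -0.0956 and 0.0232, so the numbers were not shown to pair the mice. The median log2 fold change ranged from 0.009 to 0.074 when each replicate number was left out. The number of members whose groups did not overlap was 18 and ranged from 21 to 31 with 2 mice a group, beside 38.3% to 43.7% of all tested genes, an alternative chosen after seeing the data. Over the 3 fits that each left out a replicate number, the log2 fold change turned in sign for 11 members: it ranged from -0.005 to 0.103 for *Camkk2*, -0.042 to 0.080 for *Prkcb*, -0.086 to 0.268 for *Adcy1*, -0.063 to 0.004 for *Prkar1a*, -0.013 to 0.141 for *Ppp1r1a*, -0.021 to 0.116 for *Shank1* and -0.072 to 0.090 for *Shank2*, in each of which the turned value came without replicate 2. It ranged from -0.025 (without replicate 3) to 0.032 for *Prkaca*, from -0.011 and -0.032 (without replicate 1) to 0.064 for *Ppp1ca* and *Ppp1cb*, and for *Mapk3* from -0.073 to 0.015 without replicate 2 and 0.039 without replicate 3. The cause was not tested. An unadjusted p under 0.05 was found in 11 of 11 alternatives for *Camk2d*, *Camkk1*, *Prkacb* and *Prkar2b*, whose lowest and highest FDRs were 0.00024 and 0.712, 0.0414 and 0.760, 0.0949 and 0.808, and 0.0414 and 0.747.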
